A study of Mus musculus with 4 samples.

Results

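Glypicans and syndecans are the core proteins that carry heparan sulfate chains at the cell surface. The 6 glypicans (*Gpc1* to *Gpc6*) and the 4 syndecans (*Sdc1* to *Sdc4*) were taken from the deposited RNA-seq matrix by gene symbol, which gave 10 of the 23924 genes listed. The families themselves were chosen by their FPKM values in the comparison of TG with WT, which was already known, so the values below describe them and are not independent evidence of a difference. Of the 10 genes, 9 passed the minimum mean expression required for testing, and *Gpc5* did not.

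The RNA came from tail tip fibroblasts (TTFs), cells grown out of the connective tissue of the mouse tail. Wildtype (WT) cells were from male +/+ animals and transgenic (TG) cells from their male Tg2087/+ littermates of the C57BL/6J-TgBAC8-2087 line, for which no age was given. TG cells carry, in an autosome, a BAC-sized piece of the *Xic*, the X-inactivation center, which includes *Xist*, the noncoding RNA that silences one X chromosome in female cells. *Xist* in this transgene comes with its own *Xic* sequence and is present in every cell of the animal. Cells of both genotypes were immortalized with Simian virus 40 large T and are tetraploid, and they were processed in parallel. Each genotype has 2 libraries, and whether these are separate animals or cultures was not stated, so the error between them may be technical. The comparison asks how gene expression in TG cells differed from that in WT cells.

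Glypicans are held in the outer leaflet of the membrane by a glycosylphosphatidylinositol (GPI) anchor, and carry their chains close to the membrane. Syndecans span the membrane and have a short cytoplasmic tail that binds PDZ proteins and, in *Sdc4*, protein kinase C. The heparan sulfate chains of both families bind fibroblast growth factors, Wnt and hedgehog ligands and matrix proteins, and so set how these ligands are held, presented or cleared at the surface of fibroblasts. Glypicans fall into a *Gpc3*/*Gpc5* branch and a *Gpc1*/*Gpc2*/*Gpc4*/*Gpc6* branch.

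Expression was given as FPKM, a count of fragments divided by gene length and library total, so that levels can be compared between genes. The genotypes were compared with limma on log2(FPKM + 0.5) over the 11524 genes whose mean reached 0.5 FPKM. A gene was called where its Benjamini-Hochberg adjusted p was under 0.01 and its level differed by 1 or more on the log2 scale. Fold changes on this scale understate the change of low genes. The library totals, worked out from the steps between FPKM values, lay between 9465712 and 14639946 reads, and WT 2 was 1.55 times as deep as WT 1. For a single gene, exact permutation of 2 libraries against 2 could not reach a two-sided p under 0.333. *Xist* had 0 and 0.108 FPKM in WT 1 and WT 2, against 2.31 and 2.28 FPKM in TG 1 and TG 2. Its log2 fold change was 2.34 (SE 0.40, limma adjusted p = 0.0112), and it was called by voom on the recovered reads (adjusted p = 0.00019).

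Of 10 fibroblast markers, 7 were at 1 FPKM or more in all 4 libraries, while *Lum* was listed at 0 in all of them and *Dcn* at 0 in both WT libraries. The 10 markers summed to 4363 and 3941 FPKM in WT 1 and WT 2 and to 3701 and 3801 FPKM in TG 1 and TG 2, and 0 of them were called. *Col1a1*, *Col1a2*, *Col3a1*, *Pdgfrb* and *Thy1* had both TG libraries below both WT libraries. *Pdgfra*, *Dcn*, *Fbln1* and *Vim* had both TG libraries above both WT libraries. Over all tested genes, 20.3% had both TG libraries below both WT libraries and 30.2% had them above. *Pdgfrb* had the lowest limma adjusted p of the list (0.0165). All 5 skeletal muscle markers were listed at 0 in every library. So were *Krt5*, *Krt14* and *Krt1* of 6 keratinocyte markers, and *Ptprc* and *Adgre1* of 5 leukocyte markers. The keratinocyte and leukocyte lists each held 1 marker at 1 FPKM or more in all 4 libraries. Keratinocyte *Krt10* ranged from 1.40 to 2.45 FPKM over the libraries, and leukocyte *Cd68* from 5.12 to 12.1 FPKM. The 5 endothelial markers summed to 0.036 to 0.603 FPKM. The 5 smooth muscle markers summed to 8652 and 8914 FPKM in WT and to 4058 and 4742 FPKM in TG, and 1 of them, *Cnn1*, was called lower. None of these 5 was at 0 in every library, although *Myh11* and *Des* stayed under 1 FPKM. The 6 cartilage and bone markers summed to 2.30 and 3.11 FPKM in WT and to 7.65 and 10.5 FPKM in TG, with *Sox9* called higher and *Bglap* and *Ibsp* at 0. The sums of the fibroblast, smooth muscle and cartilage and bone lists thus did not overlap between genotypes. The endothelial sums did not overlap either, at 0.603 and 0.198 FPKM in WT against 0.184 and 0.036 in TG. Nor did the Schwann and melanocyte sums, at 0.0545 and 0.311 FPKM in WT against 0.632 and 0.689 in TG. Both of these lists summed to under 1 FPKM in every library, and none of their genes reached the minimum for testing. Taken one by one, the 5 endothelial genes each overlapped between genotypes. *Pecam1* gave 0.398 FPKM of the endothelial sum in WT 1, from 12 reads. Beside the calls of *Cnn1* and *Sox9*, 0.469% of all tested genes were called lower and 0.607% higher. The part of these marker lists in the members' values was not tested. In bulk RNA, fewer cells of a kind and less RNA per cell cannot be told apart.

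Among the glypicans, *Gpc3* and *Gpc4* lie side by side on Chr X and were both lower in TG, and *Sdc4* was the syndecan with the largest fold change. The 250 bases before their annotated starts are given here for that reason, 5′ to 3′ on the strand of the gene, from RefSeq on GRCm38.p6. Capitals mark GGGCGG, the core of the GC box bound by Sp1-type factors, or its reverse complement. The stretches are chrX:52613975-52614224 for *Gpc3*, chrX:52164924-52165173 for *Gpc4* and chr2:164443189-164443438 for *Sdc4*, all on the minus strand.
Gpc3: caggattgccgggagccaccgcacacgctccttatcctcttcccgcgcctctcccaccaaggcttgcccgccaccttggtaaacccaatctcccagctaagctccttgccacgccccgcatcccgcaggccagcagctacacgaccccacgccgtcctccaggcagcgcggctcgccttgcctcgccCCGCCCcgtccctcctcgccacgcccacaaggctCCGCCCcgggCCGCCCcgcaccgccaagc
Gpc4: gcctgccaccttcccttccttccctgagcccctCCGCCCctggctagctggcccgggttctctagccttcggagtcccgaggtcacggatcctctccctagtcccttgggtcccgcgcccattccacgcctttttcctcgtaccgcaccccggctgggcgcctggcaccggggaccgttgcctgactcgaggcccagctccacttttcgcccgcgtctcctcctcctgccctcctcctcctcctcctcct
Sdc4: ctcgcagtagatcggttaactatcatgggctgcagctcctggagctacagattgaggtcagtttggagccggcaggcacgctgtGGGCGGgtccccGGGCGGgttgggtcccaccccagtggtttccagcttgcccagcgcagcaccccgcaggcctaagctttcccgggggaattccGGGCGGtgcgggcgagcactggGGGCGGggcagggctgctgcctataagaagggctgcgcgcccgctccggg

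The *Gpc3* stretch holds 25 CpG dinucleotides and 3 copies of the motif, that of *Gpc4* 18 and 1, and that of *Sdc4* 19 and 4. The median over 32851 mouse promoters of the same length was 6 CpG dinucleotides, and 32.7% of them hold GGGCGG on either strand. A promoter was at hand for 7 of the 10 members, and all 7 hold at least 1 copy. TATAAA occurred on either strand in that of *Gpc5* alone (12.4% of all promoters), and CACGTG in none of the 7 (6.02% of all promoters). Members with lower and with higher levels in TG are both among these 7, whose CpG counts ran from 10 to 32. The matches are a description of the sequence.

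The members split between lower and higher levels in TG. For every tested member the 2 TG libraries lay on one side of the 2 WT libraries. *Gpc2*, *Gpc3*, *Gpc4*, *Gpc6* and *Sdc3* made up the 5 members that were lower in TG, against 20.3% of all tested genes with both TG libraries below both WT libraries. *Gpc1*, *Sdc1*, *Sdc2* and *Sdc4* made up the 4 that were higher, against 30.2% of all tested genes. *Gpc3* was the 1 member called lower, where 0.469% of tested genes were, and 0 members were called higher, where 0.607% of tested genes were. At an unadjusted p under 0.05 limma counted 7 of the 9, against 19.6% of all tested genes. With the p limit moved to an adjusted p under 0.05 and the size limit kept, *Gpc3* was still the 1 member called. At these limits 1.05% of tested genes were called lower and 1.99% higher. *Sdc4* (limma adjusted p = 0.0274) and *Gpc4* (0.0377) met this p limit but not the size limit. Voom on the recovered reads, at the first limits, likewise called *Gpc3* alone. Each of the 9 had a mean above 0.5 FPKM in both genotypes. The median log2 fold change of the 9 was -0.56, and that of all tested genes was 0.071. Over all genes limma called 54 lower and 70 higher in TG, and after quantile normalization 55 and 47.

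**Figure D1:**
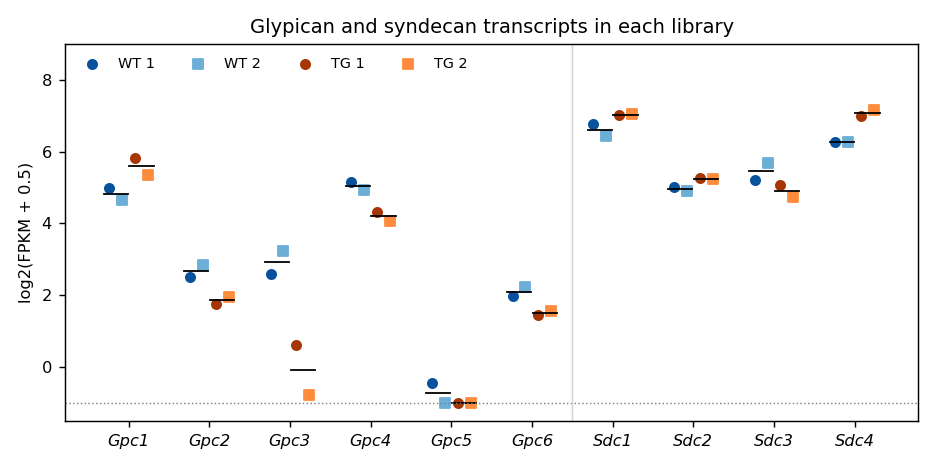
Level of each glypican and syndecan as log2(FPKM + 0.5) in each of the 4 libraries, with a short line at the mean of the 2 libraries of a genotype and a dotted line at 0 FPKM. *Gpc3* shows the widest gap between the TG libraries (1.03 and 0.0853 FPKM), and *Sdc1* and *Sdc4* lie at the top in both genotypes.

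*Gpc3*, whose loss causes Simpson-Golabi-Behmel overgrowth syndrome in humans and which holds back hedgehog signaling by binding the ligand, spans Chr X from 52272426 to 52613974 on the minus strand of GRCm38. Its levels were 5.48 FPKM (WT 1), 8.99 FPKM (WT 2), 1.03 FPKM (TG 1) and 0.0853 FPKM (TG 2). Both TG libraries lay well below both WT libraries, and TG 2 was close to 0. The mean fell from 7.24 ± 2.48 FPKM in WT to 0.557 ± 0.667 FPKM in TG (SD, n = 2), a reduction of 92.3%. The log2 fold change was -2.99 (SE 0.45, limma adjusted p = 0.00567), which placed the gene at rank 85 by p among all tested genes.

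The WT libraries held 110 and 279 reads of *Gpc3*, TG 1 held 26 and TG 2 held 2. Relative to library totals, the pooled WT libraries held 7.40 times the level of TG 1 (95% exact interval 4.97 to 11.5) and 89.3 times that of TG 2 (24.5 to 740), where the intervals cover counting error only. TG 1 held 12.1 times the level of TG 2, with an interval of 3.02 to 105. The interval of this ratio lies above 1, so the TG libraries differed by more than counting error. On the log2(FPKM + 0.5) scale this gap was 1.39, and 1.54% of tested genes had a wider gap between the TG libraries. By comparison, WT 2 was 1.64 times WT 1.

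Over the 13 alternatives the log2 fold change of *Gpc3* lay between -4.45 and -2.30. With both TG libraries below both WT libraries, only new scaling or voom could have turned its sign. The kept direction is therefore not a check in the other alternatives. The call was not the same in all 13. With WT 1 left out the log2 fold change was -3.33 (limma adjusted p = 0.0630), and with WT 2 left out it was -2.66 (adjusted p = 0.168), whereas it held with either TG library left out (adjusted p = 0.000318 without TG 1 and 0.00449 without TG 2). With all 4 libraries it was also lost with a pseudocount of 0.1 (-3.96, limma adjusted p = 0.0163), with all genes above 0 tested (adjusted p = 0.0979), without the variance trend (adjusted p = 0.0367) and with a replicate block (adjusted p = 0.0436).

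*Gpc4*, which astrocytes release to promote synapse formation, lies 108 kb from *Gpc3* on the same strand (Chr X, 52051007 to 52164923). Its levels were 35 and 30.3 FPKM in WT 1 and WT 2 and 19.7 and 16.3 FPKM in TG 1 and TG 2. The genotypes did not overlap, and within each the libraries were close. The mean was 32.6 ± 3.35 FPKM in WT and 18.0 ± 2.39 FPKM in TG (SD, n = 2), 44.9% lower. The log2 fold change of -0.85 (SE 0.19, limma adjusted p = 0.0377) met neither the p threshold nor the size required for a call. This fold change was smaller than that of *Gpc3*, and the difference between them was not tested.

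*Gpc1*, a widely expressed glypican that assists fibroblast growth factor signaling, lies on Chr 1 from 92831645 to 92860211. The WT libraries were at 31.1 and 24.6 FPKM, and TG 1 and TG 2 at 56.6 and 40.5 FPKM. It was the 1 glypican that was higher in both TG libraries, and TG 1 was above TG 2 by a factor of 1.40. The mean was 27.9 ± 4.54 FPKM in WT and 48.5 ± 11.4 FPKM in TG (SD, n = 2), and the log2 fold change was 0.78 (SE 0.22, limma adjusted p = 0.0735).

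*Gpc2*, known from the developing nervous system, lies on Chr 5 from 138273657 to 138280026. Its levels were 5.23 and 6.73 FPKM in WT against 2.91 and 3.40 in TG, and the log2 fold change was -0.82 (SE 0.26, limma adjusted p = 0.109). *Gpc6*, the closest relative of *Gpc4* and a gene of bone growth, lies on Chr 14 from 116924920 to 117979529. Its levels were 3.43 and 4.17 FPKM in WT against 2.24 and 2.43 in TG, and the log2 fold change was -0.60 (SE 0.27, limma adjusted p = 0.262). For both genes the TG libraries lay below the WT libraries by less than the test requires. *Gpc5*, the closest relative of *Gpc3*, lies 400 kb from *Gpc6* (Chr 14, 115092201 to 116525192). In WT 1 it was listed at 0.232 FPKM, and in each of the other libraries at 0, and it was not tested. Thus 4 of the 6 glypicans lie in 2 neighbouring pairs, on Chr X and Chr 14, each with 1 gene of either branch.

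*Sdc4*, the syndecan of focal adhesions, which acts with integrins when fibroblasts spread on fibronectin, lies on Chr 2 from 164424247 to 164443188. The WT libraries were at 76.1 and 76.5 FPKM, and TG 1 and TG 2 at 126 and 142 FPKM. The WT libraries were almost equal, and both TG libraries were far above them. The mean was 76.3 ± 0.28 FPKM in WT and 134 ± 11.2 FPKM in TG (SD, n = 2), 1.76 times as high. The log2 fold change of 0.81 (SE 0.17, limma adjusted p = 0.0274) met neither the p threshold nor the size required for a call.

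*Sdc1*, best known from epithelia and plasma cells, lies on Chr 12 from 8771396 to 8793716. Its levels were 109 and 85.8 FPKM in WT 1 and WT 2 and 129 and 133 FPKM in TG 1 and TG 2. The TG libraries were close to each other and the WT libraries were further apart, and the log2 fold change was 0.43 (SE 0.18, limma adjusted p = 0.223). *Sdc2*, the syndecan typical of mesenchymal cells, lies on Chr 15 from 32920723 to 33034721. It was at 31.8 and 29.4 FPKM in WT against 38.0 and 37.1 in TG, and the log2 fold change was 0.29 (SE 0.18, limma adjusted p = 0.405). This was the smallest difference among the tested members.

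*Sdc3*, the syndecan of the nervous system and of muscle progenitors, lies on Chr 4 from 130792537 to 130826318. WT 1 was at 36.7 FPKM and WT 2 at 51.4 FPKM, whereas TG 1 was at 33.1 FPKM and TG 2 at 25.9 FPKM. It was the 1 syndecan that was lower in both TG libraries, and the gap between WT 1 and TG 1 was small beside the gap between the WT libraries. The log2 fold change was -0.56 (SE 0.22, limma adjusted p = 0.187), and it ranged from -0.80 to -0.32 over the alternatives.

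**Figure D2:**
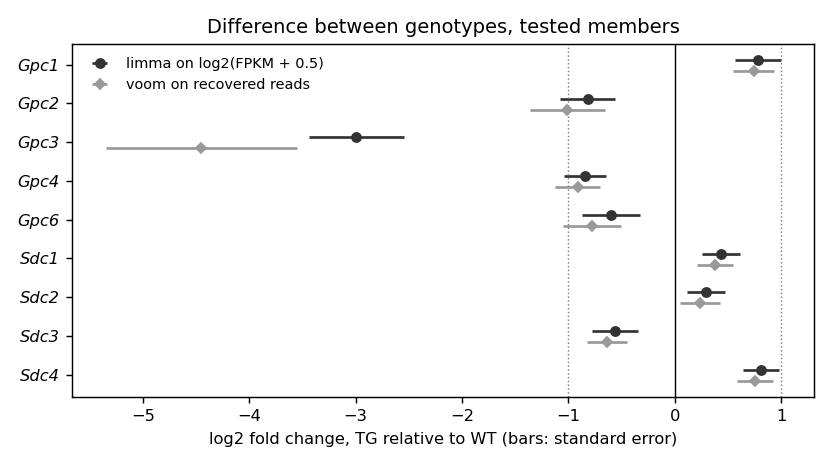
Log2 fold change of TG relative to WT for the 9 tested members, from limma on log2(FPKM + 0.5) and from voom on the recovered reads; bars are standard errors. *Gpc3* stands apart at -2.99 by limma and -4.45 by voom, and the other members lie between -1.01 and 0.81 in both fits.

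With the recovered reads, voom gave the same direction for each of the 9 members. Its log2 fold changes were -4.45 for *Gpc3* (SE 0.90, adjusted p = 0.00104), -0.91 for *Gpc4* (SE 0.21, adjusted p = 0.00484), 0.75 for *Sdc4* (SE 0.17, adjusted p = 0.00376) and 0.74 for *Gpc1* (SE 0.19, adjusted p = 0.012). *Gpc4* and *Sdc4* thus passed the p threshold in voom, but their fold changes stayed under the size required. Over all genes voom called 1.34% lower and 1.1% higher.

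Summed over the family, glypican transcripts were at 80.4 and 74.8 FPKM in WT 1 and WT 2 and at 82.5 and 62.7 FPKM in TG 1 and TG 2. The sums of the genotypes overlapped. The mean was 77.6 ± 3.98 FPKM in WT and 72.6 ± 14.0 FPKM in TG (SD, n = 2), a ratio of 0.935, and the ratio was 1.06 without TG 2. Syndecan transcripts summed to 253 and 243 FPKM in WT and to 326 and 338 FPKM in TG, without overlap. Their mean was 248 ± 7.11 FPKM in WT and 332 ± 8.34 FPKM in TG (SD, n = 2), a ratio of 1.34. Glypicans made up 24.1% and 23.5% of the transcripts of both families in WT and 20.2% and 15.6% in TG. These are sums over chosen genes and were not tested.

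The glypican sum was thus made up differently in the genotypes. *Gpc4* had the largest share in WT, 42.0% ± 2.17, and held 24.9% ± 1.53 in TG (SD, n = 2). *Gpc1* went from 35.8% ± 4.01 in WT to 66.6% ± 2.91 in TG, the largest share there. The share of *Gpc3* was 9.42% ± 3.68 in WT and 0.692% ± 0.786 in TG. Among the syndecans, *Sdc4* made up 30.8% ± 0.995 in WT and 40.4% ± 2.35 in TG, and *Sdc3* 17.8% ± 4.69 and 8.91% ± 1.75. *Sdc1* held a share of 39.1% ± 5.38 and 39.4% ± 0.108, and *Sdc2* of 12.3% ± 0.304 and 11.3% ± 0.488. Shares of a sum are tied to each other, so that a higher share of one core lowers the others.

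**Figure D3:**
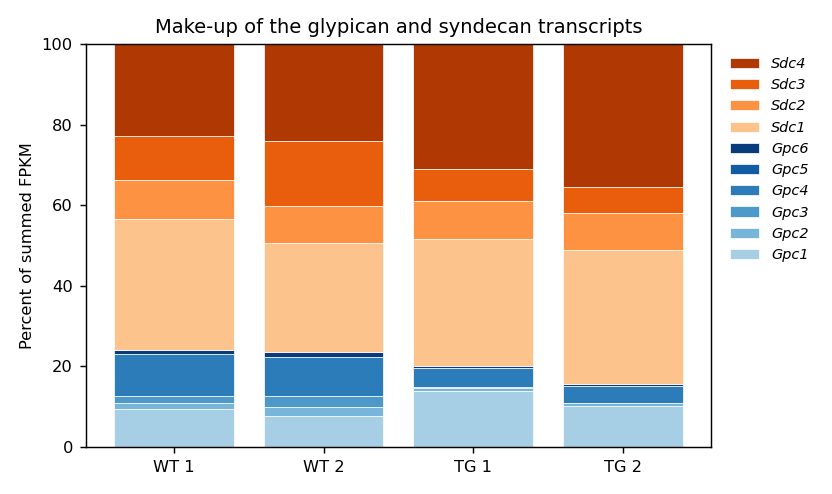
Share of each glypican and syndecan in the summed FPKM of both families, in percent, as 1 stacked bar for each of the 4 libraries. *Sdc4* takes 22.8% and 24.1% in WT 1 and WT 2 and 30.9% and 35.5% in TG 1 and TG 2, and *Gpc4* 10.5% and 9.52% against 4.81% and 4.06%.

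In WT the members ranked by mean FPKM as *Sdc1*, *Sdc4*, *Sdc3*, *Gpc4*, *Sdc2*, *Gpc1*, *Gpc3*, *Gpc2*, *Gpc6* and *Gpc5*. The libraries of *Gpc4* and *Sdc2*, of *Sdc2* and *Gpc1* and of *Gpc3* and *Gpc2* overlapped, so the order within these pairs is not settled. In TG the order was *Sdc4*, *Sdc1*, *Gpc1*, *Sdc2*, *Sdc3*, *Gpc4*, *Gpc2*, *Gpc6*, *Gpc3* and *Gpc5*, and only the libraries of *Sdc4* and *Sdc1* overlapped. *Gpc1* went from below *Sdc3* and beside *Gpc4* and *Sdc2* in WT to above all 3 in TG. *Gpc3* went from the level of *Gpc2* to below *Gpc6*.

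The genes that build, trim, anchor and read these proteoglycans were followed in 8 lists with 85 genes, of which 62 were tested, 23 were below the minimum and 9 were listed at 0 in all libraries. Of the 62, 0 were called lower by limma and 2 were called higher, *Ugdh* and *Gas1*. Over all tested genes limma called 0.469% lower and 0.607% higher, shares that also stand beside the limma counts of each list below. Voom called 1 lower and 2 higher, against 1.34% and 1.1% of all tested genes. At an unadjusted p under 0.05 limma counted 11 of the 62, a share near the 19.6% of all tested genes. The TG libraries lay below the WT libraries for 21 of the 62 and above them for 15, against 20.3% and 30.2% of all tested genes. The median log2 fold change over the 62 was -0.089.

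*Ugdh* makes UDP-glucuronic acid, one of the sugar donors of the chain, and was 1 of 6 genes for precursor supply, all tested. It was at 25.3 and 24.8 FPKM in WT against 56.2 and 54.9 in TG. The libraries of each genotype were almost equal, and the gene rose 2.22 times in TG (log2 fold change 1.14, SE 0.17, limma adjusted p = 0.00665). The call was lost with any 1 library left out, where the adjusted p was 0.0549 without WT 1, 0.0859 without WT 2, 0.0300 without TG 1 and 0.0233 without TG 2. It was also lost after upper-quartile scaling (adjusted p = 0.0111) and quantile normalization (0.0116), with all genes above 0 tested (0.0523), without the variance trend (0.0460) and with a replicate block (0.0409), and so held in 4 of 13 alternatives, voom among them (adjusted p = 0.00024). For *Slc26a2*, the sulfate transporter of the same list, the log2 fold change was -0.79 (limma adjusted p = 0.186).

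For chain assembly, 10 of 12 genes of the linker and the polymerizing enzymes were tested and 0 were called, with a median log2 fold change of 0.032. The largest differences were in *Xylt2*, which starts the linker, at 0.52 (limma adjusted p = 0.233), and *B3gat3*, which completes it, at 0.52 (adjusted p = 0.280). Among the genes that modify the chain, 11 of 18 were tested and 0 were called. Here 7 had both TG libraries below both WT libraries and 1 had them above, against 20.3% and 30.2% of all tested genes. The median was -0.45, and the list as a set was not tested. *Sulf1*, an endosulfatase that removes 6-O-sulfate from finished chains, was at 3.11 and 3.68 FPKM in WT against 1.58 and 1.36 in TG (log2 fold change -0.98, limma adjusted p = 0.0967). *Hs6st3*, a 6-O-sulfotransferase, was at 0.840 and 0.836 FPKM in WT against 0.205 and 0.332 in TG (-0.80, adjusted p = 0.350). Both genes were lower in TG without passing the test.

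Of 12 genes for cleavage and release, 6 were tested and 0 were called. Both TG libraries lay below both WT libraries for 3 and above for 0, against 20.3% and 30.2% of all tested genes. *Mmp14*, the membrane-bound metalloproteinase, was at 274 and 307 FPKM in WT against 173 and 220 in TG (log2 fold change -0.57, limma adjusted p = 0.127). *Mmp2*, which it activates, differed by -0.35 (adjusted p = 0.289). The 6 genes that attach the GPI anchor, which all glypicans need, were all tested with 0 called and a median of 0.14. *Gpaa1* was at 0.54 (adjusted p = 0.271), and *Pigu* at -0.48 (adjusted p = 0.414), which turned to 0.03 without TG 2.

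The 7 partners of the syndecan tail were all tested with 0 called and a median of -0.023. For *Tiam1*, a Rac exchange factor, the log2 difference was -0.45 (limma adjusted p = 0.348), and *Sdcbp2*, a relative of syntenin, -0.39 (adjusted p = 0.684), which turned to 0.25 without TG 2. Of 10 other proteoglycans that can carry heparan sulfate, 7 were tested and 0 were called, with a median of 0.38. *Nrp1*, a receptor for semaphorins and VEGF, was at 16.7 and 17.8 FPKM in WT against 32.0 and 27.5 in TG (log2 fold change 0.76, limma adjusted p = 0.0499). *Cd44*, the hyaluronan receptor, was at 50.2 and 56.0 FPKM in WT against 82.2 and 83.9 in TG (0.64, adjusted p = 0.0665). As with *Sdc4*, the TG libraries were above the WT libraries but short of the threshold.

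In the hedgehog pathway, whose ligands glypicans bind, 9 of 14 genes were tested, with 0 called lower and 1 called higher. *Gas1*, a GPI-anchored co-receptor of hedgehog ligands, rose from 5.42 and 6.12 FPKM in WT to 23.8 and 18.6 FPKM in TG, 3.68 times (log2 fold change 1.78, SE 0.22, limma adjusted p = 0.00149). The call was lost without WT 1 (adjusted p = 0.0444), without WT 2 (adjusted p = 0.0446) and without TG 1 (adjusted p = 0.0105), and held without TG 2 (adjusted p = 0.00296). It was also lost with all genes above 0 tested (adjusted p = 0.0523), without the variance trend (0.0201) and with a replicate block (0.02), and so held in 7 of 13 alternatives. *Gli2*, the main activating transcription factor of the pathway, was at 3.41 and 5.08 FPKM in WT against 1.30 and 1.38 in TG. Its log2 fold change was -1.34 (SE 0.31, limma adjusted p = 0.0358), short of a call, whereas voom called it lower (-1.73, adjusted p = 0.000455). The median of the 9 genes was -0.087.

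**Figure D4:**
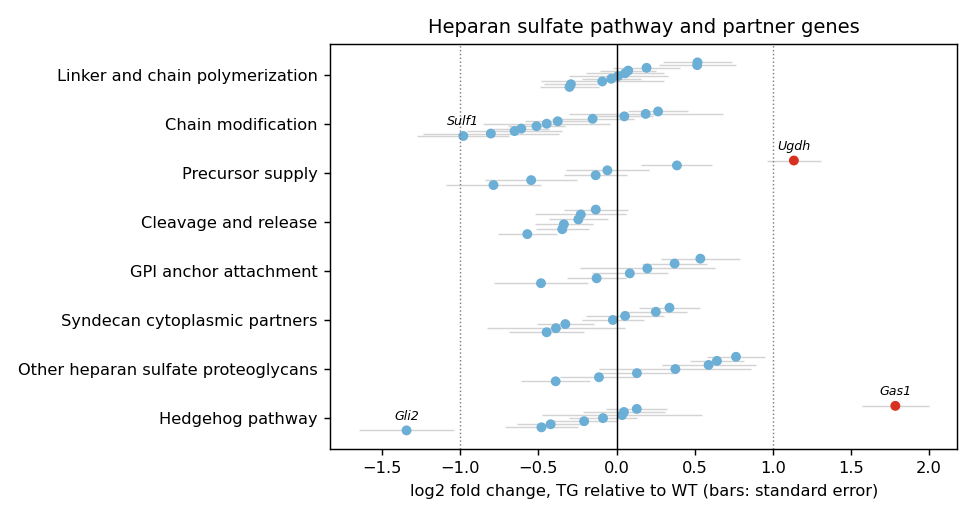
Log2 fold change of TG relative to WT, with standard errors, for the 62 tested genes of the 8 pathway lists, 1 band for each list. The 2 called genes, in red, are *Ugdh* at 1.14 and *Gas1* at 1.78.

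Genes next to the members were examined because the study asked whether genes with lower levels in TG lie in clusters. Within 1 Mb of the 10 members lay 124 other tested genes, of which 0 were called lower and 0 higher by limma. The TG libraries lay below the WT libraries for 22 of them and above for 38, shares near the 20.3% and 30.2% of all tested genes, and the median log2 fold change was 0.086. Within 3 Mb the numbers were 304 genes, 0 and 0. Around *Gpc3* and *Gpc4* the values were -0.09 for *Mospd1*, 0.03 for *Fam122b*, 0.05 for *Hs6st2*, 0.26 for *Phf6*, 0.26 for *Mbnl3*, 0.36 for *Hprt*, 0.39 for *Rtl8c* and 0.60 for *C430049B03Rik*, genes that were named after their values were seen. *Hs6st2*, itself a 6-O-sulfotransferase of heparan sulfate and a neighbour of *Gpc4*, was at 25.3 and 23.6 FPKM in WT against 26.4 and 24.3 in TG. For 0 of these 8 genes did both TG libraries lie below both WT libraries. Around *Gpc6*, also lower in TG, they did so for 4 of 5 tested genes within 1 Mb and lay above for 0. Around *Gpc2* they lay below for 4 of 39 and above for 15, and around *Sdc3* below for 1 of 10 and above for 2. These groups of neighbours were not tested as sets. Over Chr X, 3 of 367 tested genes, *Gpc3* itself among them, were called lower and 1 higher, where 0.469% and 0.607% of all tested genes were. The median log2 fold change of the 367 was 0.135, against 0.071 for all tested genes.

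**Figure D5:**
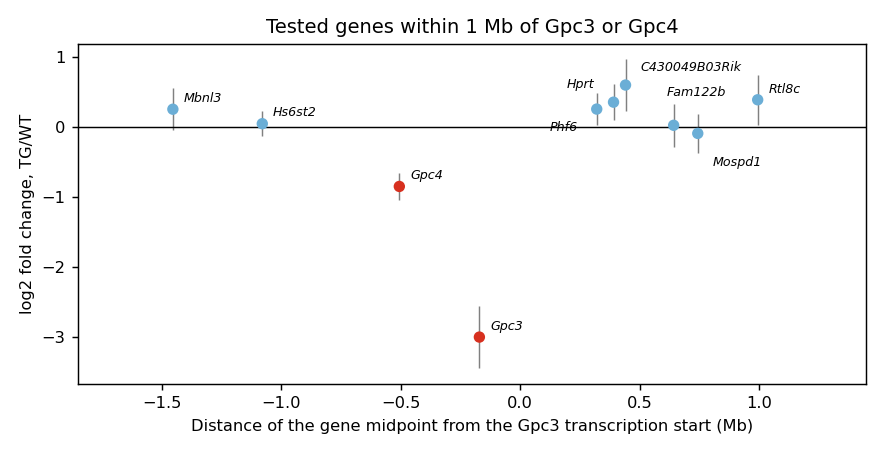
Log2 fold change of TG relative to WT, with standard errors, for *Gpc3*, *Gpc4* and the 8 other tested genes within 1 Mb of either, against the distance of the gene's midpoint from the start of *Gpc3* in Mb. *Gpc3* at -2.99 and *Gpc4* at -0.85 lie below 0, and the other genes lie between -0.09 and 0.60.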

How the data were processed

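RNA-seq of 2 WT and 2 TG libraries was used. The authors selected polyadenylated RNA, made strand-specific libraries, used Rsubread for alignment to mm10 and for gene counts, tested the counts with DESeq and converted them to the deposited FPKM values. Whether counting used strand was not stated. Whole reads were recovered from the FPKM steps for 15528 of 15530 genes above 0 in any library (99.99%; within 0.001 of a read, or 0.0001 where 15 digits were given, plus rounding in the last digit). For 1194 of these genes the steps left a common factor that was set from the exonic length, among the members only for *Gpc5*. The reads made up 98.7% to 98.9% of the library totals. With them, voom called 154 genes lower and 127 higher in TG.

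The main test was limma 3.58.1 in R 4.3.3 with a variance trend on log2(FPKM + 0.5), for genes whose mean reached 0.5 FPKM. The settings varied were the pseudocount (1 or 0.1), the filter (all genes above 0, or a mean of 1 FPKM), the variance trend (none), the scaling (upper quartile or quantile normalization), a replicate block, each library left out, voom on the reads with TMM factors, and an adjusted p under 0.05. The fits and the recovery of reads were tested on simulated data. Read ratios were given exact binomial intervals (scipy 1.17.1 in Python 3.11.15).

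Members and lists were chosen with earlier results of these data known. Named were all members, *Xist*, and in each pathway list the called genes and the 2 with the largest absolute log2 fold change. Positions and promoters are from RefSeq on GRCm38.p6, the assembly of mm10, and 23722 symbols matched. Protein sequences were not used here.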

Additional observations from a re-analysis of the deposited data

How the results depend on the processing

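For every tested member the TG libraries lay on one side of the WT libraries, so only new scaling or voom could turn a sign. The fold changes of the members under the alternatives (117 values) all kept their direction. Of these, 6, all of *Gpc3*, no longer passed the threshold. Thus the number of members called lower, 1, was 0 with a pseudocount of 0.1 (*Gpc3* adjusted p = 0.0163), with all genes above 0 tested (0.0979), without the variance trend (0.0367) and with the replicate block (0.0436), and 0 to 1 with a library left out; with 1 library in an arm, that library is assumed to vary like the others. The number called higher was 0 throughout. Pathway genes called lower, 0, became 1 (*Gli2*) with voom and with an adjusted p under 0.05 at the same size limit. Those called higher, 2, became 0 with all genes above 0, without the trend and with the replicate block, 1 with upper-quartile scaling and with quantile normalization, and 0 to 1 with a library left out. The glypican ratio of TG to WT, 0.935, ranged from 0.807 to 1.06 with a library left out, and the syndecan ratio, 1.34, was 1.28 after upper-quartile scaling and 1.25 after quantile normalization. Of 207 values for the 16 named pathway genes, 2 turned their sign, both without TG 2 (*Pigu* from -0.48 to 0.032, with left-out libraries ranging from -0.999 to 0.032, and *Sdcbp2* from -0.39 to 0.25, ranging from -1.03 to 0.25). The labels give both genotypes replicate numbers 1 and 2. Across 11524 genes the differences between libraries 1 and 2 of WT and of TG had a correlation of -0.0276. Libraries of the same number thus had no clear difference in common across genes. This value cannot tell whether the numbers pair animals, cultures or preparations, which was not stated. With the replicate block limma called 8 genes lower and 12 higher, against 54 and 70 without it. The cause of these losses was not tested. With 2 libraries a genotype and 2 reads of *Gpc3* in TG 2, its level in TG could not be set more narrowly.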
